A study of Rattus norvegicus with 18 samples.

Results

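Cell cycle genes were read across 18 RNA-seq libraries of rat oligodendrocyte progenitor cells (OPCs), the dividing glial cells that give rise to myelinating oligodendrocytes. A set of 38 genes was taken by symbol from the 17337 genes of the deposited files, 19 that act in DNA replication and 19 that act in mitosis. Total RNA came from cells enriched with magnetic beads. There were 6 groups of 3 libraries: aged and neonate cells grown on soft hydrogels, aged and neonate cells grown on stiff hydrogels, and aged and neonate primary sorted cells. The cultured cells stood on laminin-coated gels in FGF and PDGF, growth factors that drive OPC division, and the same growth text stands beside the primary samples, which are named as sorted and not as cultured. Strain, sex, age in days, gel stiffness in pascals and time in culture are not given in the sources used here, and the age of the primary libraries is given by a letter in the title. The labels do not state whether replicates come from different animals, and the p-values therefore measure only the spread among these libraries, which may be technical.

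A dividing cell copies its DNA once and then parts the copies. In late G1, cyclin D with Cdk4 or Cdk6 and cyclin E with Cdk2 release E2F transcription factors, which switch on the genes for nucleotide supply and for the replicative helicase. The later genes, for cyclins A and B, Cdk1, spindle motors and the anaphase-promoting complex, are switched on in G2 and M phase, in human and mouse cells through promoter elements called CHR and CCAAT boxes. In rodents OPCs divide readily in the young brain and more slowly with age.

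Promoters were inspected as a further property of the genes. The motifs searched belong to the regulation described above for such genes, so their shares describe the members and are not an independent result. RefSeq gives a window of 300 bases, from 250 before to 50 after the gene's start, for 30 of the 38 members on the rat build GRCr8. Windows were searched on both strands for E2F-like sites spelled TTGGCGC or by the related spellings TTCGCGC and also TTCCCGC. CHR elements were spelled TTTGAA or, as a variant, TTCGAA, and the CCAAT box was searched as those letters; sites may overlap. An E2F-like site was found in 10 of 15 replication windows (66.7%) and 3 of 15 mitosis windows (20%), against 7.52% of all 33469 windows. A CHR element was found in 4 of 15 replication windows (26.7%) and 11 of 15 mitosis windows (73.3%), against 19.7% of all windows. The CCAAT box was found in 9 replication windows (60%) and 12 mitosis windows (80%), against 37.5% of all windows. Both an E2F-like site and a CHR element were found for Mcm2, Mcm7, Rrm1, Ung, Cdk1, Kif23 and Mki67.

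The 250 bases before the start are shown for the called members that have a window, and for Mki67, with these sites in capitals; a site on the opposite strand reads as its reverse complement. Gins2 lies at chr19:65548053-65548302 on the minus strand, Tk1 at chr10:103544778-103545027 on the minus strand, Mcm7 at chr12:22163179-22163428 on the minus strand and Pcna at chr3:139955821-139956070 on the minus strand. Top2a lies at chr10:84473094-84473343 on the minus strand, Cdc20 at chr5:137255800-137256049 on the minus strand and Mki67 at chr1:199952594-199952843 on the minus strand.
Gins2: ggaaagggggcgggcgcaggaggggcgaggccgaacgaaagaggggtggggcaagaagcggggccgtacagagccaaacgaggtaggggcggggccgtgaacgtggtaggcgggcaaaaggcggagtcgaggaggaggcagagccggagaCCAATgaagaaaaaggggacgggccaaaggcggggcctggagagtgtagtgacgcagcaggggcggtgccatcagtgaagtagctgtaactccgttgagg
Tk1: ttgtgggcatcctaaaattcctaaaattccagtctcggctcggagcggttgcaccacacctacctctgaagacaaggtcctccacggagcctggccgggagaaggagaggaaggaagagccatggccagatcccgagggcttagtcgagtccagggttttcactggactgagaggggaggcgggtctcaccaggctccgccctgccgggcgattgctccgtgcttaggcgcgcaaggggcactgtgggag
Mcm7: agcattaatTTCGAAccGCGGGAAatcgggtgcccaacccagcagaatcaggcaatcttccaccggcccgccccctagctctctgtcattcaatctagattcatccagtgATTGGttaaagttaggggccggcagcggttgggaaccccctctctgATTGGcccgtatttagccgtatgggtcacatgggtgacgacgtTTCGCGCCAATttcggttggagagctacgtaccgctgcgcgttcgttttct
Pcna: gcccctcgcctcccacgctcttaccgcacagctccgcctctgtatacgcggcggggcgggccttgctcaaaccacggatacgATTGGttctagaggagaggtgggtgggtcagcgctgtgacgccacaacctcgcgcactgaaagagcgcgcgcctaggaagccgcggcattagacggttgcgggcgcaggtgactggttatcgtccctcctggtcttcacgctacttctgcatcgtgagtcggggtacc
Top2a: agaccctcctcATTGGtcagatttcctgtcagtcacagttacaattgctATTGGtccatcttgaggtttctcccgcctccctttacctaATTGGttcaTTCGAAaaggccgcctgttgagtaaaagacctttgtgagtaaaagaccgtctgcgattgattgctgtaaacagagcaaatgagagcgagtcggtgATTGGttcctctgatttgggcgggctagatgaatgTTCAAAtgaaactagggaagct
Cdc20: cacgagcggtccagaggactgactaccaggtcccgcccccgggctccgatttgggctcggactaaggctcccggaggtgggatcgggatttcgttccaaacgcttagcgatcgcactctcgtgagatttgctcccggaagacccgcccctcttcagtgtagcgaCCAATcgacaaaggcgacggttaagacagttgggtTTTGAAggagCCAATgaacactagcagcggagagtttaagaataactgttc
Mki67: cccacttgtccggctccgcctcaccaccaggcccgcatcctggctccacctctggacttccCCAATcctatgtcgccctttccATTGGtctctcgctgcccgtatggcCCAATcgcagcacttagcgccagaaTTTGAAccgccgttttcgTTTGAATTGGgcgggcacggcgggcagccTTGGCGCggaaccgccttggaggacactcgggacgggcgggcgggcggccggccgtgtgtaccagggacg
These letters show sites of all 3 kinds upstream of Mcm7 and Mki67, CHR and CCAAT sites upstream of Top2a and Cdc20, CCAAT alone upstream of Gins2 and Pcna, and none of the searched letters upstream of Tk1. A match is a description of the letters, not of a bound site.

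Gene levels are given as scaled TPM, the TPM unit (a share of transcripts that takes their length into account) divided by 1 factor per library. Depth was low: exonic bases came to 33939 to 141883 read pairs per library at 300 bases a pair, and ribosomal RNA took 38.7% to 82.4% of the TPM. For a transcript of 2 kb, 1 pair amounts to between 2.41 and 11.3 scaled TPM, depending on the library. All 38 members passed the filter on low values (TPM 1 or more in 3 or more libraries), but 29 averaged fewer than 5 read pairs per library and 33 were at 0 in at least 1 library, so a 0 is no proof of absent expression. Replicate 1 of each aged group stood apart, with 77.2% (primary), 66.9% (soft) and 54.7% (stiff) of 1196 olfactory receptor genes covered. These are called the 3 broad libraries. The other 15 libraries had 0.251% to 39.1% (median 2.68%). Aged soft replicates 2 and 3 were the next highest, at 39.1% and 30.8%. Leaving out the 3 broad libraries therefore does not remove broad coverage from the aged soft group.

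The markers of the labelled cell type and of other cells differed between the groups. Summed over 13 OPC markers, aged primary libraries had 127 to 228 scaled TPM and neonate primary ones 992 to 1137, while 16 microglia markers summed to 3408 to 6266 in aged and 147 to 325 in neonate primary libraries. All 13 OPC markers and all 16 microglia markers were above 0 in at least 1 aged primary library. That says little, since the broad library of this group had 93.5% of all genes tested above 0. Tmem119 and Ptprc were at 0 in all 3 neonate primary libraries. Neuroblast and neuron markers, 12 in all, summed to 12.5 to 148 in aged and 720 to 985 in neonate primary libraries, with Sox11 at 0 in the aged group. Summed astrocyte markers (8) were at 111 to 216 in aged and 187 to 235 in neonate primary libraries, mature oligodendrocyte markers (11) at 198 to 475 in aged and 217 to 355 in neonate ones, and endothelial markers (7) at 38.3 to 163 in aged and 12.02 to 23.1 in neonate ones. The mature oligodendrocyte sums hide a difference by gene. Of these 11 markers 10 were higher in aged primary cells and 1 was lower (median difference 3.26 on the log2(scaled TPM + 1) scale). Mag, Mobp, Ermn, Aspa, Ugt8 and Opalin were at 0 in all 3 neonate primary libraries. On gels the OPC markers summed to 373 to 739 (soft) and 125 to 580 (stiff) in aged libraries and to 1564 to 2100.4 (soft) and 1296 to 2116 (stiff) in neonate ones. On gels the microglia markers summed to 654 to 1119 (soft) and 353 to 854 (stiff) in aged libraries and to 52.8 to 132 (soft) and 37.2 to 63.8 (stiff) in neonate ones, where 12 of 16 were at 0 on stiff gels. Neuroblast and neuron markers summed to 44.6 to 99.2 (soft) and 8.44 to 117 (stiff) in aged gel libraries. In neonate gel libraries they summed to 79.2 to 90.6 (soft) and 112 to 197 (stiff), against 720 to 985 in primary cells. The part of these markers in the results on age, culture and stiffness was not tested. In bulk RNA fewer cells of a type and less RNA per cell cannot be told apart.

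The first question was how cell cycle genes differed with age in primary sorted cells. Rrm2 and Gins2 were lower in aged primary cells, Tk1 was higher, and no mitosis gene passed the test. These 3 calls, 2 lower and 1 higher, were made with limma on log2(scaled TPM + 1) at an adjusted p of 0.05 over 15144 genes, of which 2.5% were called (0.647% lower, 1.86% higher). Differences are aged minus neonate on that scale, ± SE of the fit, and understate the change of low genes.

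Rrm2, the small subunit of ribonucleotide reductase, makes deoxynucleotides for replication and is in the rn6 files at chromosome 6, 43884627 to 43890818. Its level was 13.8, 0 and 0 scaled TPM in the aged primary libraries, against 187, 324 and 303 in the neonate ones. Only the broad aged library was above 0, and the groups did not overlap (difference -6.75 ± 0.86; limma, adjusted p = 5.23e-05). The call held whichever library was left out, but not when the spread was taken from the 6 primary libraries alone (limma, adjusted p = 0.0551).

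Rrm2 reads did not cover the gene evenly. Exons 1 to 3, 372 of its 2527 bases or 14.7% of the length, held 97.7% of the bases counted over the 18 libraries. Their mean coverage was 77.8, 0 and 0 in aged primary libraries, against 1271, 2199.6 and 2009 in neonate ones, in scaled TPM units. Exons 4 to 9 had 2.73, 0 and 0 in aged primary libraries, against 0, 0 and 8.01 in neonate ones, and were above 0 in 8 of 18 libraries. The last exon, of 1456 bases, was at 0 in every library. Of 10895 tested genes with at least 5 exons, 58 (0.532%) held at least 90% of their bases in 3 exons that make up at most 20% of the length, and Rrm2 was the only one of the 35 such members among them. Without the most covered exon of each gene Rrm2 was still called (-6.30; limma, adjusted p = 0.0022), and without the 3 most covered it was not (-0.42; limma, adjusted p = 1), so the call rests on exons 1 to 3. These exon windows were chosen after the coverage was seen, and what the reads come from was not tested.

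Gins2, a subunit of the GINS complex that is part of the replicative helicase, is at chromosome 19, 54151048 to 54163608. It had 75.9, 146 and 122 scaled TPM in the aged primary libraries, against 609.7, 766 and 622 in the neonate ones. The groups were far apart (difference -2.57 ± 0.50; limma, adjusted p = 0.00407), and the call held whichever library was left out. Exon 5, the last, with 3471 of 4192 bases or 82.8% of the length, held 99.7% of its reads. Its coverage was 84.95, 176 and 147 in aged primary libraries, against 736, 925 and 751 in neonate ones. Exons 1 to 4, 721 bases, were at 32.1, 0 and 0 in aged libraries, against 0, 0 and 0 in neonate ones. Without the most covered exon of each gene the difference turned round and was not called (1.68; limma, adjusted p = 0.713).

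**Figure D1:**
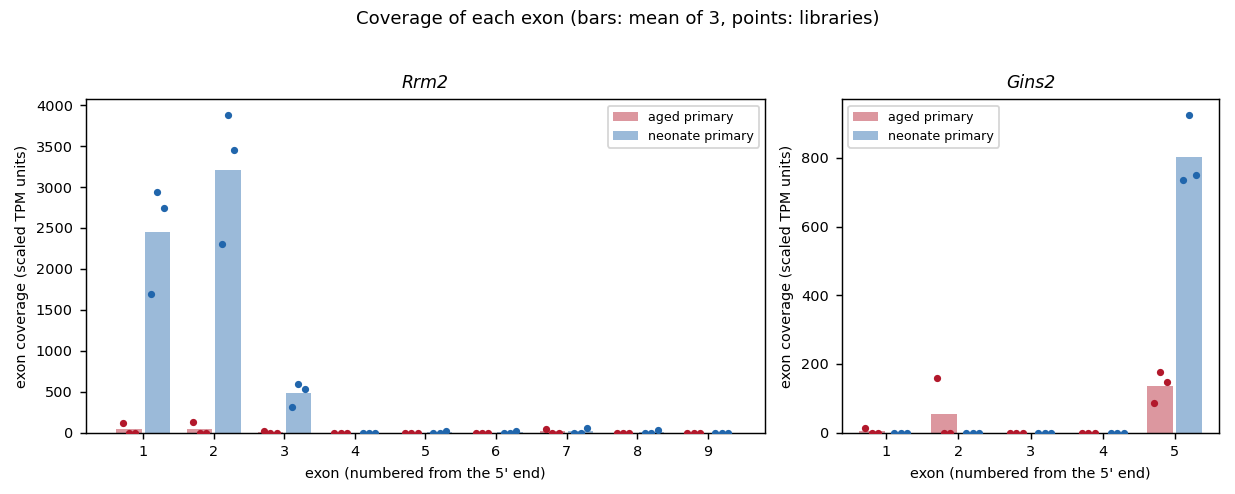
Coverage of each exon of Rrm2 and Gins2 (y axis, scaled TPM units) by exon number from the 5' end (x axis) in aged and neonate primary libraries; bars are means of 3 libraries and points are libraries. Rrm2 coverage sits in exons 1 to 3 and Gins2 coverage in exon 5, where the neonate libraries read 736 to 925 and the aged ones 85.0 to 176.

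Tk1, thymidine kinase of the salvage pathway for thymidine, is at chromosome 10, 106817557 to 106828884. It had 81.7, 83.7 and 97.9 scaled TPM in the aged primary libraries, against 2.69, 9.94 and 11.5 in the neonate ones. All 3 aged libraries were high, the opposite of Rrm2 (difference 3.47 ± 0.90; limma, adjusted p = 0.0344). The call ended when any 1 of the 6 primary libraries was left out (limma, adjusted p = 0.0676 to 0.187), without scaling (0.0915), with a pseudocount of 0.1 (0.119) and without the 3 most covered exons of each gene (0.789). In the last exon the coverage was 97.7, 109 and 107 in aged primary libraries, against 3.61, 13.3 and 5.42 in neonate ones, and in exons 1 to 6 values of 34.6, 10.8 and 70.4 were read in aged libraries, against 0, 0 and 29.3 in neonate ones.

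The minichromosome maintenance genes Mcm2 to Mcm7 encode the ring of the replicative helicase. Mcm7 had 12.2, 7.41 and 25.4 scaled TPM in aged primary libraries, against 36.7, 31.8 and 72.3 in neonate ones, without overlap (-1.65 ± 0.78; limma, adjusted p = 0.368). Its span from start to end holds Mir106b, Mir25 and Mir93, microRNA genes on the same strand. Whether these overlap its exons, and so add to its reads, was not examined. Mcm3 had 16.3, 3.55 and 6.47 in aged primary libraries, against 17.5, 34.9 and 46.96 in neonate ones. Mcm6 had 7.95, 0 and 9.05 in aged primary libraries, against 22.02, 13.4 and 28.3 in neonate ones. Neither of these passed the test, and Mcm2 overlapped, with 18.4, 0 and 3.24 in aged and 13.9, 5.37 and 13.1 in neonate primary libraries. Mcm4 and Mcm5 overlapped as well.

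Pcna, the sliding clamp of DNA polymerases, had 13.1, 50.6 and 36.05 scaled TPM in aged primary libraries, against 51.7, 39.8 and 43.2 in neonate ones, and the groups overlapped. Ccne2, a cyclin E that acts at the entry into S phase, had 40.5, 29.5 and 31.7 in aged primary libraries, against 55.8, 75.1 and 53.1 in neonate ones, without overlap (-0.83 ± 0.69; limma, adjusted p = 0.697). The other 8 replication genes overlapped between aged and neonate primary libraries. Rrm1, the large subunit of the reductase, Tyms and Dut of thymidylate supply, Cdc45 and Cdc6 of helicase activation and loading, the clamp loader subunit Rfc4, the flap nuclease Fen1 and the uracil glycosylase Ung were at 0 to 50.3 in aged and 0 to 32.7 in neonate libraries.

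Among mitosis genes Mki67, whose protein coats mitotic chromosomes and marks dividing cells, went the other way from most. It had 30.3, 54.2 and 17.2 scaled TPM in aged primary libraries, against 8.35, 10.1 and 4.58 in neonate ones, without overlap (1.92 ± 0.86; limma, adjusted p = 0.334). Aurka, a spindle pole kinase, had 73.8, 21.4 and 35.4 in aged primary libraries, against 14.5, 14.1 and 4.8 in neonate ones, also higher without overlap (1.83 ± 1.06; limma, adjusted p = 0.528). Neither passed the test.

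Top2a, the topoisomerase that untangles sister chromatids, had 7.41, 0 and 0 scaled TPM in aged primary libraries, against 14.8, 11.9 and 28.2 in neonate ones (-3.16 ± 1.07; limma, adjusted p = 0.137). Tpx2, a spindle assembly factor, had 12.3, 16.4 and 0 in aged primary libraries, against 36.9, 53.7 and 61.2 in neonate ones (-3.04 ± 0.93; limma, adjusted p = 0.0843). Both were lower without overlap, as were Kif11, Kif23 and Ccna2, and none of the 5 passed the test.

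The spindle motor Kif11 had 18.2, 0 and 2.22 in aged primary libraries, against 24.3, 27.7 and 30.5 in neonate ones, and its exon 1, 5.69% of the length, held 62.3% of its bases over the 18 libraries. The motor Kif23, which acts at the midzone in cytokinesis, had 1.72, 0 and 0 in aged primary libraries, against 3.48, 5.43 and 16.4 in neonate ones. Cyclin A2, Ccna2, had 12.3, 6.18 and 19.5 in aged primary libraries, against 29.3, 25.5 and 25.2 in neonate ones. The kinase of mitosis, Cdk1, overlapped between the ages, with 37.4, 0 and 0 in aged and 14.05, 4.91 and 30.005 in neonate primary libraries. Its partner cyclin B1, Ccnb1, did too, with 6.94, 0 and 0 in aged and 1.76, 11.4 and 2.76 in neonate ones. For Cdc20, which activates the anaphase-promoting complex, aged primary values were 12.2, 0.479 and 0.103 and neonate primary ones 10.9, 19.7 and 29.5, with the broad aged library inside the neonate range.

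The remaining 9 mitosis genes also overlapped: Nusap1 and Cenpf of spindle and kinetochore, the checkpoint kinases Bub1 and Bub1b, the kinases Aurkb and Plk1, Birc5 of the chromosomal passenger complex, the ubiquitin ligase partner Ube2c, and Ccnb2. In aged primary replicates 2 and 3 all of these but Ccnb2 were at 0. Ccnb2 is a single exon of 1491 bases on chromosome 1 inside Akap7, on the other strand, in the files, so its values are uncertain. The promoter window counted for Ccnb2 is on chromosome 8 of GRCr8, so its levels and its window may not belong to the same locus.

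**Figure D2:**
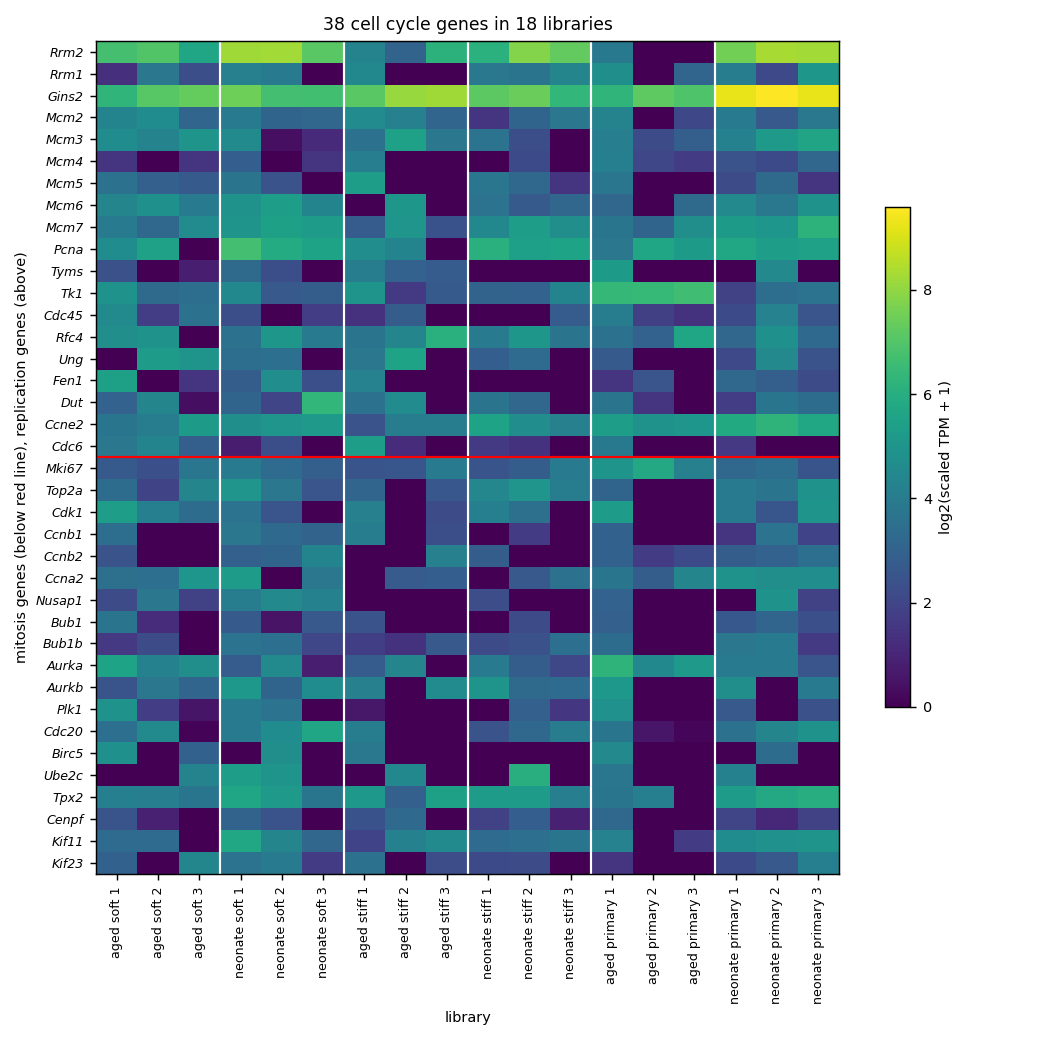
Level of each of the 38 genes (rows; replication genes above the red line, mitosis genes below) in each of 18 libraries (columns, grouped by age and setting), as log2(scaled TPM + 1). Rrm2 and Gins2 stand out in neonate primary libraries, and aged primary replicates 2 and 3 have many genes at 0.

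In all, 11 of 38 members (28.9%), 6 replication and 5 mitosis genes, were lower in every aged than in every neonate primary library, where 4.97% of all genes tested were. Another 3 (7.89%), Tk1, Mki67 and Aurka, were higher without overlap, where 11.1% of all genes were. Members and all genes are not alike in detection: 22.4% of member values were at 0, against 41.4% for all genes tested. A gene at 0 in a neonate library cannot be lower without overlap in aged ones. This limits the shares without overlap on gels too. The median difference was -1.11 for replication genes and -1.24 for mitosis genes, against 0.71 for all genes tested, and 14 of 19 replication and 16 of 19 mitosis genes were negative. Less the median of all genes the values were -1.81 and -1.95. Both medians were also negative without scaling, with voom, without the 3 broad libraries and without the most covered exons. Without the 3 broad libraries the median of all genes fell to 0, and those of replication and mitosis genes were -1.59 and -2.34. The positive median of all genes in primary cells thus rests on the broad library. The medians of the members were nearest to 0 without the 3 most covered exons of each gene, at -0.52 for replication and -0.16 for mitosis genes, against 0.47 for all genes. Without the 3 broad libraries limma called 5 members, with Top2a and Kif11 lower beside Rrm2, Gins2 and Tk1. The share of all genes called in that setting is not given here, so this count has no background beside it. With voom it called 7 members, where it called 6.75% of all genes.

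Members above 0 were counted in each library, a count that at this depth moves with level. The broad aged primary library had 38 of 38 members above 0, while replicates 2 and 3 had 17 and 18 of 38, or 44.7% and 47.4%, and the 3 neonate primary libraries had 34 or 35. Over all genes tested 49.1% and 53.1% were above 0 in aged primary replicates 2 and 3, against 48.3% to 63.7% in neonate primary libraries. Mitosis genes had 6 of 19 above 0 in each of those aged libraries, against 16 or 17 in neonate ones, and replication genes had 11 and 12 in the aged libraries, against 17 or 18 in neonate ones.

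**Figure D3:**
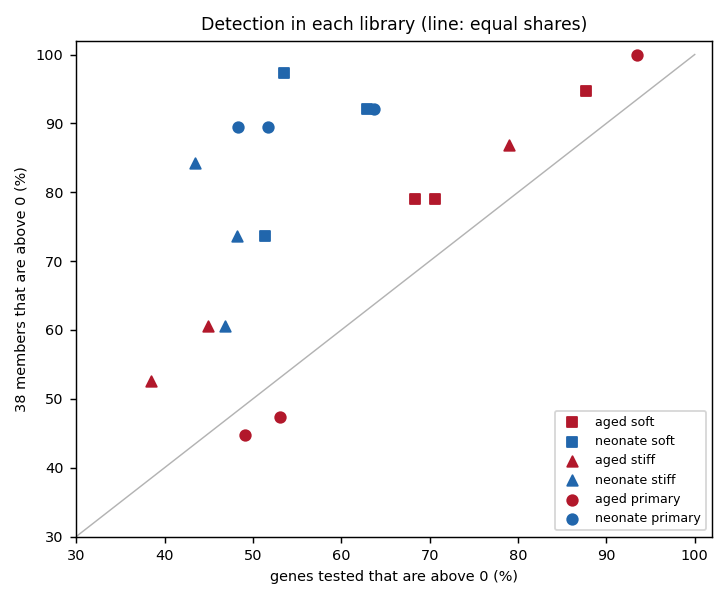
Share of the 38 members above 0 (y axis, percent) against the share of all genes tested above 0 (x axis, percent) in each of 18 libraries; the line marks equal shares. Aged primary replicates 2 and 3 are the only libraries below the line, at 44.7% and 47.4% of members.

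Replication and mitosis genes were then compared by their summed level. Replication genes summed to 431, 339.9 and 394 scaled TPM in aged primary libraries, against 1048, 1423 and 1266 in neonate ones. Rrm2 and Gins2 were 20.8% to 42.9% of that sum in aged and 73.0% to 76.6% in neonate primary libraries. Without them the other 17 summed to 341, 194 and 272 in aged libraries, against 252, 334 and 342 in neonate ones, and the groups overlapped. The replication sums of the ages did not overlap with Rrm2 and Gins2 and overlapped without them, with Tk1 kept.

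Mitosis genes summed to 346, 101 and 77.9 scaled TPM in aged primary libraries, against 234, 254 and 274 in neonate ones. The broad aged library was above, and the other 2 aged libraries were below, all neonate libraries. Without Mki67 the aged sums were 316, 46.7 and 60.7, against 226, 243 and 269 for the neonate libraries. The ratio of the replication to the mitosis sum was 1.25, 3.37 and 5.06 in aged and 4.47, 5.61 and 4.63 in neonate primary libraries. Without Rrm2 and Gins2, and with Tk1 kept, the ratio was 0.987, 1.92 and 3.49 in aged and 1.07, 1.32 and 1.25 in neonate ones.

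The question of age was asked again on each gel, and no member was called there. On soft gels limma called 1.56% of all genes (1.37% higher, 0.191% lower), and 0 of 38 members, of which 3 had an unadjusted p under 0.05, as had 16.6% of all genes. On stiff gels it called 2.19% of all genes (1.13% higher, 1.06% lower) and 0 members, of which 5 had an unadjusted p under 0.05, as had 13.6% of all genes. With voom on read equivalents 3 members were called on soft gels (Rrm2, Pcna and Kif11), where voom called 5.96% of all genes, and 1 on stiff gels (Rrm2), where it called 3.16%.

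On soft gels Rrm2 had 107, 127 and 48.9 scaled TPM in aged libraries, against 300.2, 302 and 141 in neonate ones, and on stiff gels 18.6, 7.36 and 69.6 in aged libraries, against 68.6, 221 and 155 in neonate ones. Rrm2 was lower in every aged than in every neonate library on soft gels, while on stiff gels aged replicate 3 was just above the lowest neonate library (limma, adjusted p = 0.41 on soft and 0.144 on stiff gels). Exons 1 to 3 of Rrm2 again held the reads, with 726, 724 and 268 in aged soft, against 2039, 2035 and 956 in neonate soft libraries. On soft gels Gins2 had 75.7, 135 and 160.1 scaled TPM in aged libraries, against 177, 103 and 101 in neonate ones, and on stiff gels 141, 272 and 297 in aged libraries, against 141, 168 and 79.7 in neonate ones. The ages overlapped on both gels for Gins2. On soft gels Tk1 had 29.2, 8.86 and 10.05 scaled TPM in aged libraries, against 21.1, 5.33 and 6.04 in neonate ones, and on stiff gels 30.3, 2.08 and 5.62 in aged libraries, against 7.27, 7.16 and 19.1 in neonate ones. The ages overlapped for Tk1 too.

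On soft gels Rrm2, Mcm7, Pcna, Ccnb2 and Nusap1 were lower in aged than in neonate libraries without overlap, 5 of 38 members (13.2%) where 3.68% of all genes were. Of these, Ccnb2 has uncertain values, as given above. Cdc6 alone was higher without overlap (2.63%), where 16% of all genes were. On stiff gels Pcna, Ccne2 and Top2a were lower without overlap (7.89%), where 4.79% of all genes were, and Tyms was higher (2.63%), where 5.61% of all genes were. The median difference on soft gels was -0.46 for replication and -0.70 for mitosis genes, against 0.88 for all genes. On stiff gels it was 0.46 for replication and -0.40 for mitosis genes, against 0.50 for all genes. Neither sign was stable: the mitosis median was 0.26 without scaling, and the replication median was -0.39 without the 3 broad libraries. Without these 3 libraries the median of all genes was 0.46 on soft and 0 on stiff gels.

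Over the 3 settings in 1 contrast, Rrm2, Mcm7, Pcna, Top2a and Cdc20 were lower in aged than in neonate libraries. The median difference was -0.35 for replication and -0.89 for mitosis genes, against 0.70 for all genes. Without the 3 broad libraries it was -0.69 for replication and -1.47 for mitosis genes, against 0.19 for all genes. The 5 calls of members stand against 10.7% of all genes called, 2.72% lower and 7.93% higher, and no member was called higher. With voom 11 members were called, all lower, where 16.4% of all genes were called in either direction. Rrm2 had a difference of -3.58 ± 0.50 (limma, adjusted p = 1.49e-05) and was called whichever library was left out. It was not called without the 3 most covered exons of each gene (0.43; limma, adjusted p = 0.805).

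Mcm7 differed by -1.47 ± 0.45 (limma, adjusted p = 0.0359). Its level was 14.9, 8.08 and 23.7 scaled TPM in aged soft, against 30.4, 42.4 and 38.1 in neonate soft libraries, and 5.87, 30.7 and 4.35 in aged stiff, against 21.3, 38.97 and 25.5 in neonate stiff libraries. It was the only member called without the 3 most covered exons (-1.35; limma, adjusted p = 0.0166).

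Pcna differed by -1.99 ± 0.64 (limma, adjusted p = 0.0448). Its level was 24.4, 43.9 and 0 in aged soft, against 104, 59.1 and 46.04 in neonate soft libraries, and 24.8, 19.1 and 0 in aged stiff, against 67.6, 42.01 and 46.3 in neonate stiff libraries. Exons 2 and 3, 14.3% of its length, held 48.0% of its bases. Of the called members shown by sequence, Mcm7 holds all 3 kinds of site upstream and Pcna a CCAAT box alone.

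Top2a differed by -2.09 ± 0.62 (limma, adjusted p = 0.0294), with 9.58, 2.86 and 19.5 in aged soft, against 31.02, 13.04 and 4.79 in neonate soft libraries, and 7.76, 0 and 5.09 in aged stiff, against 20.7, 30.5 and 15.7 in neonate stiff libraries. Cdc20 differed by -2.25 ± 0.71 (limma, adjusted p = 0.0421), with 10.3, 23.2 and 0.0543 in aged soft, against 14.8, 24.1 and 48.8 in neonate soft libraries, and 15.2, 0 and 0 in aged stiff, against 4.41, 8.46 and 15.4 in neonate stiff libraries. For both genes the aged libraries lay lower on the whole, with overlap on soft gels, and for Cdc20 on stiff gels and in primary cells too. Both carry CHR and CCAAT letters upstream.

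Calls other than that of Rrm2 were close to the threshold and single libraries ended them. Top2a lost its call without neonate primary replicate 3, aged soft replicate 2, neonate soft replicate 1 or 2, aged stiff replicate 2 or neonate stiff replicate 1 or 2 (limma, adjusted p up to 0.0748). Mcm7 lost it in 12 of 18 cases, all but aged primary replicate 3, neonate primary replicate 2, aged soft replicate 3, aged stiff replicates 2 and 3 and neonate stiff replicate 1 (limma, adjusted p up to 0.0849). Pcna lost it in 13 of 18, all but aged primary replicate 2, aged soft replicates 1 and 2 and aged stiff replicates 1 and 2 (limma, adjusted p up to 0.109). Cdc20 lost it in 14 of 18, all but aged primary replicate 1, aged soft replicate 2, aged stiff replicate 1 and neonate stiff replicate 1 (limma, adjusted p up to 0.0894). Without the 3 broad libraries Mcm7 and Pcna were not called, and Kif11 was. Choices of processing ended calls too. Top2a lost its call without scaling, without the most covered exon and without the 3 most covered exons of each gene. Mcm7 lost it with a pseudocount of 0.1 and without scaling. Pcna lost it with that pseudocount, with no filter and under both exon alternatives. Cdc20 lost it with that pseudocount and without the 3 most covered exons.

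**Figure D4:**
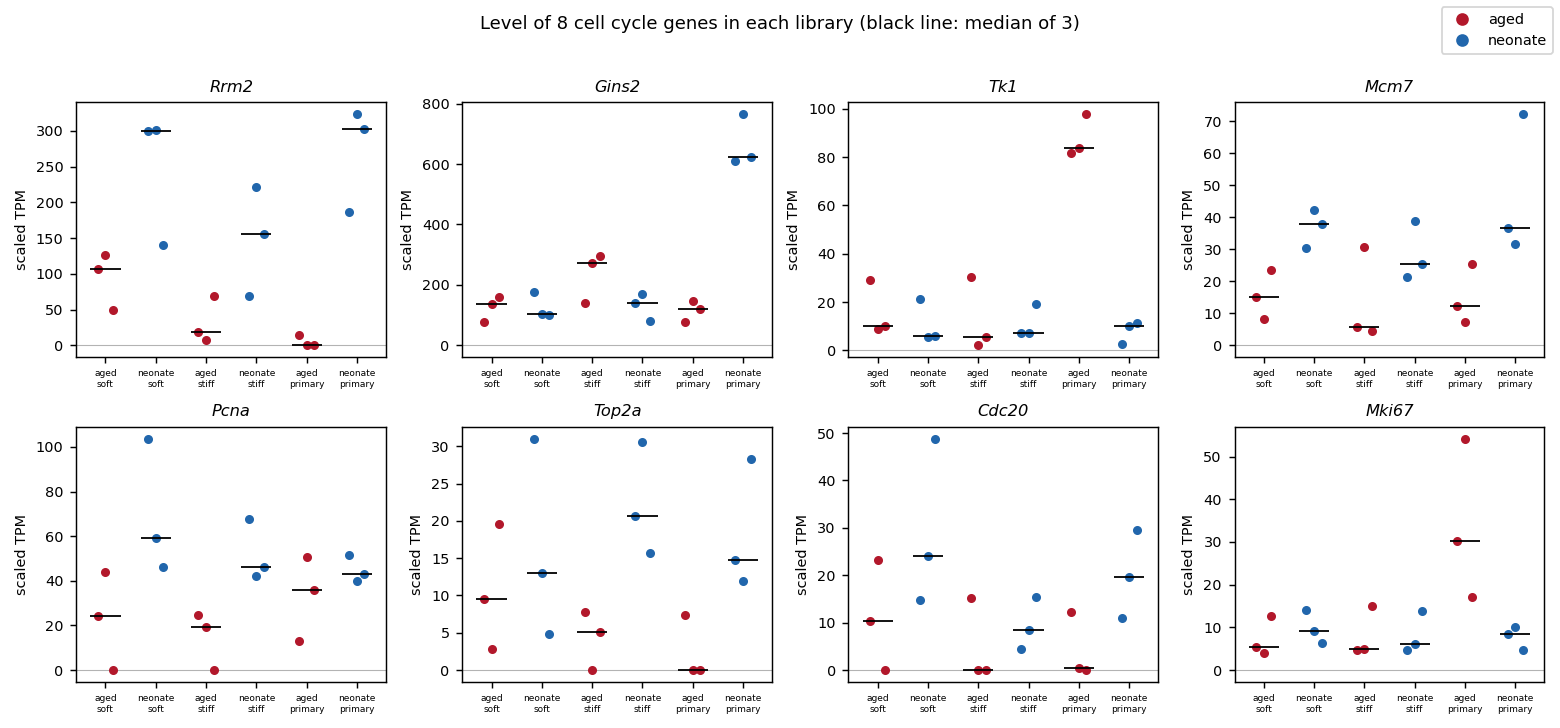
Level of 8 members in scaled TPM (y axis) in each of 18 libraries, by group (x axis); points are libraries, red aged and blue neonate, and the black line is the median of 3. Gins2 in neonate primary libraries (609.7 to 766) and Tk1 in aged primary ones (81.7 to 97.9) lie apart from all other groups.

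The next question was how the genes differed between gels and primary cells at each age, where the cell type markers given above differed too. In aged cells Rrm2 was higher on gels than in primary cells, with 107, 127 and 48.9 scaled TPM with soft and 18.6, 7.36 and 69.6 with stiff gels, against 13.8, 0 and 0 in primary cells (4.19 ± 0.74; limma, adjusted p = 0.00287). It was the 1 member among 1.03% of all genes called (0.337% higher). The call was lost without aged primary replicate 2 (limma, adjusted p = 0.0561), with the spread taken from the groups compared alone (0.0949) and without the 3 most covered exons (0.851). With voom 3 members were called, Rrm2 higher and Tk1 and Mki67 lower, where 3.15% of all genes were called.

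In aged cells Tk1 read 29.2, 8.86 and 10.05 with soft and 30.3, 2.08 and 5.62 with stiff gels, against 81.7, 83.7 and 97.9 in primary ones, and was not called (-2.97 ± 0.78; limma, adjusted p = 0.061). It was called when aged soft replicate 1, aged stiff replicate 1 or the 3 broad libraries were left out. Mki67 in aged cells read 5.5, 3.997 and 12.6 with soft and 4.6, 4.87 and 14.98 with stiff gels, against 30.3, 54.2 and 17.2 in primary ones (-2.01 ± 0.75; limma, adjusted p = 0.293), and no gel library of aged cells was above the lowest primary one. In neonate cells Mki67 read 14.1, 9.09 and 6.4 with soft and 4.66, 6.18 and 13.9 with stiff gels, against 8.35, 10.1 and 4.58 in primary cells, and overlapped.

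In neonate cells Gins2 was lower on gels, with 177, 103 and 101 scaled TPM with soft and 141, 168 and 79.7 with stiff gels, against 609.7, 766 and 622 in primary cells (-2.42 ± 0.43; limma, adjusted p = 0.0135). It was the 1 member among 0.0924% of all genes called (0.0528% lower, 0.0396% higher). The call was lost without any 1 of the neonate primary libraries (limma, adjusted p = 0.0547, 0.135 and 0.0961 without replicates 1, 2 and 3), and without the most covered exon of each gene the difference was 0.57 and not called (limma, adjusted p = 1). Over the members, the median difference of gels minus primary cells was 0.53 for replication and 0.45 for mitosis genes in aged cells, against 0.05 for all genes, and -0.45 for replication and -0.35 for mitosis genes in neonate cells, against 0 for all genes. Without scaling the neonate medians were -1.44 for replication and -1.21 for mitosis genes, against -0.47 for all genes. With voom 2 members, Gins2 and Mcm3, were called lower on gels in neonate cells, where 0.641% of all genes were called. The culture comparisons use the primary libraries of the age comparison again, so their values are not independent of it.

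An interaction term compared the effect of culture between the ages: the gel minus primary difference in aged cells less that in neonate cells. Gins2 was the 1 member called (2.97 ± 0.61; limma, adjusted p = 0.0465), where 0.112% of all genes were (0.033% higher). The call held without aged soft replicate 1, aged stiff replicate 1 or aged stiff replicate 3 and ended without any 1 of the other 15 libraries (limma, adjusted p up to 0.224). With voom 3 members were called, Gins2, Rrm2 and Mcm3, where 0.746% of all genes were. For Rrm2 the interaction was 4.76 ± 1.05 and did not pass (limma, adjusted p = 0.0799).

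Gel stiffness was the last comparison, and no member was called at either age. In aged cells limma called 0.0792% of all genes, and 4 of 38 members had an unadjusted p under 0.05, as had 10.9% of all genes. In neonate cells it called 0% of all genes and 3 members had an unadjusted p under 0.05, as had 2.9% of all genes. With voom no member was called at either age, and 0.244% of all genes were in aged and 0.0198% in neonate cells. The median difference, soft minus stiff, was 0.54 for replication and 0.50 for mitosis genes in aged cells, against 0.61 for all genes, and with voom both lay above the median of all genes, by 0.27 and 0.05. Without the 3 broad libraries the aged medians were 0.71 for replication and 1.06 for mitosis genes, against 0.75 for all genes. In neonate cells the median difference was 0.36 for replication and 0.94 for mitosis genes, against 0.03 for all genes.

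Ccna2 and Nusap1 were higher in aged soft than in aged stiff libraries without overlap (5.26% of members, where 6.63% of all genes were), and Tyms was lower (2.63%, where 1.69% were). In neonate cells Mcm6, Fen1, Ccnb1, Ccnb2 and Nusap1 had higher values with soft than with stiff gels, without overlap (13.2%, where 3.8% of all genes were). The values of Ccnb2 are uncertain here too. Nusap1, which bundles spindle microtubules, had 15.5, 21.6 and 17.7 scaled TPM on soft gels, against 3.86, 0 and 0 on stiff gels, in neonate cells (3.50 ± 1.28; limma, adjusted p = 1). In aged cells it had 3.66, 12.9 and 2.7 on soft gels, against 0, 0 and 0 on stiff gels. Mitosis genes summed to 252, 134 and 167 on soft gels, against 156, 85.97 and 150.3 on stiff gels, in aged cells, and 376, 271 and 173 on soft gels, against 159, 216 and 110.0 on stiff gels, in neonate cells, and the groups overlapped at both ages. The interaction of age with stiffness called 0 members and 0.0066% of all genes, and 0 members had an unadjusted p under 0.05, as had 5.26% of all genes.

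**Figure D5:**
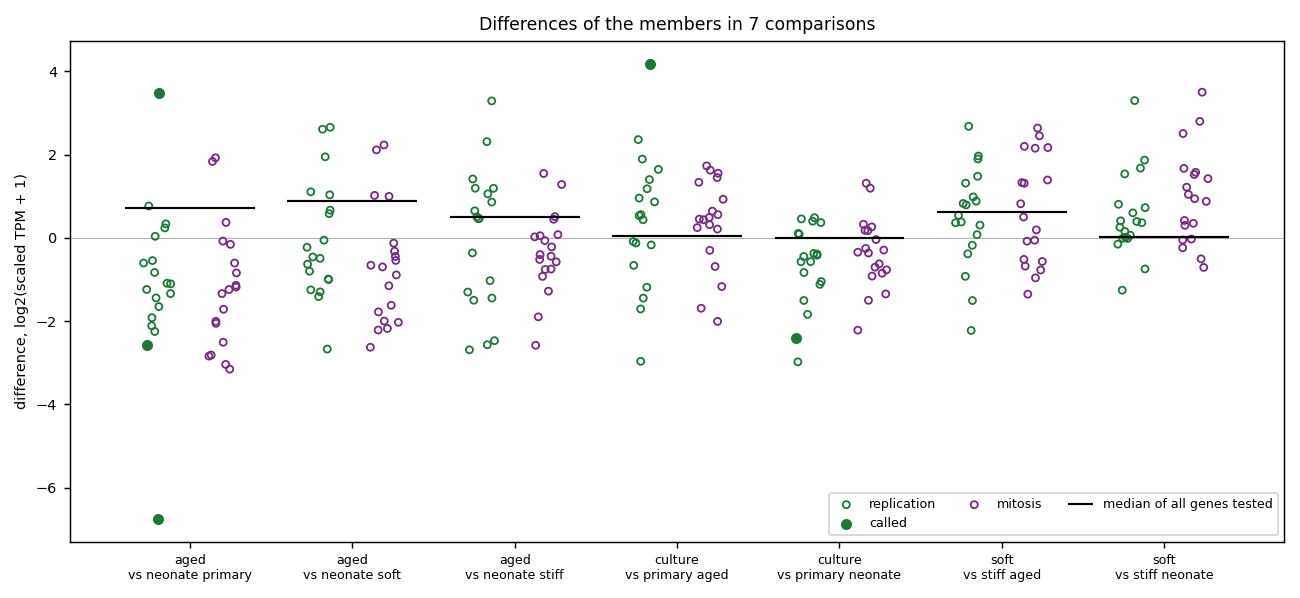
Fitted difference of each member on the log2(scaled TPM + 1) scale (y axis) in 7 comparisons (x axis), replication genes in green and mitosis genes in purple; filled points are called by limma and black lines are medians of all genes tested. Most members lie below the black line in the comparison of aged with neonate primary cells, and the 5 filled points are Rrm2 in 2 comparisons, Gins2 in 2 and Tk1 in 1.

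Wider lists of cell cycle genes were read beside the members. Of 49 other replication genes in the files 47 were tested, and 0 were called by limma in any of the 10 comparisons, while 0 to 7 had an unadjusted p under 0.05 in a comparison. Of 47 other mitosis genes 2 were called lower in aged cells over the 3 settings, where 2.72% of all genes were. Cdca3, which promotes entry into mitosis, had a difference of -2.50 ± 0.73 (limma, adjusted p = 0.0272) and Gtse1, which is expressed in G2 and S phase, -2.31 ± 0.63 (limma, adjusted p = 0.0187). How these calls moved under the alternatives is not given here. In primary cells Cdca3 had 17.9, 0 and 0 scaled TPM in aged libraries, against 32.2, 41.9 and 117 in neonate ones, and Gtse1 2.79, 0 and 0 in aged libraries, against 10.2, 11.97 and 24.2 in neonate ones.

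Of 20 regulators of G1 phase 1 was called. Between the ages 10.7% of all genes were called over the 3 settings (2.72% lower) and 2.19% on stiff gels (1.06% lower). Cdk4, the kinase that pairs with D cyclins to start the cycle, was lower in aged cells over the 3 settings (-1.63 ± 0.34; limma, adjusted p = 0.00186) and on stiff gels (-2.73 ± 0.58; limma, adjusted p = 0.0082). It had 10.3, 59.5 and 55.5 scaled TPM in aged stiff libraries, against 216, 219 and 235 in neonate stiff ones. On soft gels it had 71.9, 57.5 and 71.5 in aged libraries, against 125, 234 and 119 in neonate ones. In primary cells it had 109, 64.6 and 101 in aged libraries, against 139, 213 and 195 in neonate ones. Every aged library was below every neonate library in primary cells, on soft gels and on stiff gels. In the files Cdk4 overlaps March9 and Tspan31 on the other strand, and without a strand option reads of the overlap cannot be told apart, so its values are uncertain. How its calls moved under the alternatives is not given here. The median difference in primary cells was -0.37 for the other replication genes, -0.51 for the other mitosis genes and -0.83 for the G1 regulators, against 0.71 for all genes tested.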

How the data were processed

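Total RNA of 18 libraries was prepared with a stranded kit for low input and sequenced as read pairs, per the labels. The authors deposited 1 StringTie 1.3.2d table per library, per the file headers, with TPM, FPKM and coverage for annotated rn6 transcripts, and no strand option was given. The submitters' processing notes also name Trimmomatic, HISAT2 and Bowtie, without their order or settings. The deposited TPM values were summed per gene and divided by a median-of-ratios factor from 1644 genes. Differences were tested with limma 3.58.1 in R 4.3.3 (statmod 1.5.0) on log2(scaled TPM + 1), with 6 group means in 1 fit, a variance trend and Benjamini-Hochberg adjustment over the 15144 of 17337 genes that reached TPM 1 in 3 or more libraries; a gene was called at an adjusted p under 0.05. Counts of reads were not in the tables, so read pairs are coverage times length over 300 bases. Values are TPM, so depth limits precision as read pairs per gene, and no interval was computed.

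Members, lists, promoter motifs and named genes were chosen with earlier results of these data known. Per-library values are given for members called in a comparison, for those whose aged and neonate primary libraries did not overlap, and for Mcm2, Pcna, Mki67, Top2a, Cdk1 and Ccnb1, and other listed genes are named where called. Nusap1 on gels was added after its values were seen. Alternatives were another pseudocount, no filter, no scaling, voom, only the groups compared, a replicate block, each library left out and the broad libraries left out; leaving out the most covered exons was added after seeing the data. The fit was tested on simulated data whose design was revised after first results. It recovered large changes far more often than small ones, and false calls were a larger share of its calls than the threshold allows. Changes were planted only in genes with more read pairs than most members had, so recovery at the depth of most members was not tested. Marker lists cover OPCs, microglia, mature oligodendrocytes, neuroblasts and neurons, astrocytes and endothelial cells. Loci are rn6 and promoter windows GRCr8, and no position was carried between them.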

Additional observations from a re-analysis of the deposited data

Results flagged for a closer look

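Gins2 was the member for which the difference between gels and primary cells itself differed between the ages by a test of that difference, with an interaction of 2.97 on the log2(scaled TPM + 1) scale (limma, adjusted p = 0.0465). The gel minus primary difference was 0.56 in aged and -2.42 in neonate cells. The call ended under a replicate block (limma, adjusted p = 0.0548), and without the most covered exon of each gene the interaction was -0.81 and not called.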

How the results depend on the processing

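Counts of members called moved by over 1.5 times as follows. With voom they were 7 in primary cells (6.75% of all genes called), 3 on soft (5.96%) and 1 on stiff gels (3.16%) for age, 11 over all settings (16.4%), 3 and 2 for culture in aged (3.15%) and neonate cells (0.641%), and 3 for the interaction of age with culture (0.746%). With a pseudocount of 0.1 they were 2 over all settings and 0 for that interaction, which was also 0 with no filter. With no scaling they were 3 over all settings and 2 for the interaction. With only the groups compared, culture in aged cells gave 0. Without the 3 broad libraries there were 5 in primary cells, 2 for culture in aged cells and 3 for the interaction. Without the most covered exon there were 3 over all settings, 0 for culture in neonate cells and 0 for the interaction, and without the 3 most covered exons 0 in primary cells, 1 over all settings and 0 for both culture comparisons and the interaction. Shares of all genes called are given for voom only, so the other counts of members, here and below, have no background beside them.

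Smaller moves also changed which members were called. In primary cells Tk1 was lost with a pseudocount of 0.1 (2 called), Tpx2 replaced Tk1 with no scaling (3), Rrm2 was lost with only the groups compared (2), and Mcm7 replaced Gins2 without the most covered exon (3). Over all settings Pcna was lost with no filter (4), and Kif11 replaced Mcm7 and Pcna without the broad libraries (4).

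Of the members called, Gins2 and Rrm2 turned sign, under the exon alternatives. Gins2 was 1.68 for age in primary cells without the most covered exon, 0.57 and 0.34 for culture in neonate cells without 1 and 3 exons, and -0.81 and -0.34 for the interaction. Rrm2 over all settings was 0.43 without 3 exons. Leaving out each library gave 2 to 3 members in primary cells, 0 to 1 on stiff gels (Rrm2, without aged stiff replicate 3), 1 to 4 over all settings, 0 to 2 and 0 to 1 for culture in aged and neonate cells, 0 to 1 for the interaction with culture, and 0 to 0 for the other comparisons.

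Replicate numbers were not taken to pair the libraries, since deviations of same-numbered libraries in different groups correlated at -0.0937 to 0.233 (median 0.0125, 45 pairs), and those of other-numbered ones at -0.22 to 0.121 (median -0.00234, 90 pairs). The 3 broad libraries do share the number 1. Under a replicate block the interaction of age with culture gave 0 members, and no other count of members moved. Depth limits all of this, since 29 of 38 members averaged fewer than 5 read pairs.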
